A study of Mus musculus with 16 samples.

Results

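Described here are 10 genes of inflammatory cytokine and NF-kB signalling in mouse liver, out of 55357 genes in the series' count table. They were chosen with earlier results of these data known, taken by name and matched to the table through their Ensembl identifiers. All 10 were found, and all 10 passed the filter on low counts that left 14421 genes for testing. By role they are the ligands Ccl2, Ccl9, Il1b and Tnf, the sensor Nlrp3, the NF-kB subunits Nfkb1 and Rel, the inhibitors Nfkbia and Tnfaip3, and the target Icam1.

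The study sequenced ribosome-depleted total RNA from untreated liver in 16 libraries, each from 10 mg of tissue, in 4 groups of 4. The AUG group carries the genotype given as mTERC CUG/AUG, and its wild-type controls are called AUG_WT here. The del7 group carries mTERC 29_35del, a deletion of 7 nucleotides at positions 29 to 35, and its wild-type controls are called del7_WT. Whether CUG/AUG means an exchanged codon or 2 different alleles is not stated in the labels. They give no ages, sexes or batches, and do not state that each library is a separate animal, so p-values measure only the spread between libraries. Terc encodes the RNA template of telomerase. Terc itself is not analysed here.

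NF-kB is a family of dimeric transcription factors that rest in the cytoplasm, held there by inhibitors such as the product of Nfkbia. Signals from Toll-like, interleukin-1 and tumour necrosis factor receptors activate a kinase complex that marks the inhibitor for degradation, and the freed dimers enter the nucleus and switch on cytokines, chemokines, adhesion molecules and their own inhibitors. In liver the pathway is known above all from Kupffer cells, the resident macrophages, and from recruited myeloid cells, while hepatocytes and endothelial cells answer the cytokines those cells release.

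The promoters of 4 of the genes are shown because these genes share a short sequence. Each was also highest in the same library, as given further on, but so were most of the 10 genes. Promoter windows in RefSeq (GRCm38.p6), from 250 bases before to 50 after a transcript start, were at hand for 8 of the 10 genes, in 10 windows. Ccl2 and Nfkb1 are named only. Capitals mark GGAAATNCC on either strand, a motif chosen with these windows in view. The windows lie at chr12:55492598-55492897 for Nfkbia, chr10:19015361-19015660 for Tnfaip3, chr11:23770920-23771219 for Rel, all on the minus strand, and at chr9:21015690-21015989 on the plus strand for Icam1.
Nfkbia: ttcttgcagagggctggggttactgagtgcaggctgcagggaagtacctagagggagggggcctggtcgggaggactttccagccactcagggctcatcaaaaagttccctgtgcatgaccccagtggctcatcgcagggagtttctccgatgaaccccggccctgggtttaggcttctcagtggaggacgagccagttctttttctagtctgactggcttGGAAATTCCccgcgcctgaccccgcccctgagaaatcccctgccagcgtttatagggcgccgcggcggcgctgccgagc
Tnfaip3: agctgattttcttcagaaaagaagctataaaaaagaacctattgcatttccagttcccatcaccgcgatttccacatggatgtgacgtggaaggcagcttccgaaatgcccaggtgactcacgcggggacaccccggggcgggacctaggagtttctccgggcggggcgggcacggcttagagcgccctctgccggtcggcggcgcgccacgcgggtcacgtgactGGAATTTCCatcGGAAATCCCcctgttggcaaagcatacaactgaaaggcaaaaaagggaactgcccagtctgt
Rel: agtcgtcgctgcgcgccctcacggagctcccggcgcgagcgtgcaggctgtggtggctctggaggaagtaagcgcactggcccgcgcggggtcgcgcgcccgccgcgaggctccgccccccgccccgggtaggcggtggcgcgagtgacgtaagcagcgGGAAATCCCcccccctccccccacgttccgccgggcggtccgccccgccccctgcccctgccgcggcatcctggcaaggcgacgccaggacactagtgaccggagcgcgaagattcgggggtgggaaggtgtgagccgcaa
Icam1: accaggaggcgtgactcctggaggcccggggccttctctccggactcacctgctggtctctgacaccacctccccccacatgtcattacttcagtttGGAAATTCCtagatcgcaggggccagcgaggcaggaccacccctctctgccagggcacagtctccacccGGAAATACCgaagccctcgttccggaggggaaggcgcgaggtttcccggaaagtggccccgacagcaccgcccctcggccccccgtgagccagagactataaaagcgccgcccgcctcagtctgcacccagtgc

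GGAAATNCC was found in these 4 of the 8 genes, in 4 of their 10 windows, and in 1.25% of 32851 promoter windows of the same length. Because the motif was chosen with the windows of these genes in view, that share gives scale and is not a test. Tnfaip3 holds it 24 and 12 bases before its start, and Icam1 holds it 153 and 84 bases before. In Rel it lies 91 bases and in Nfkbia 29 bases before the start. The broader NF-kB consensus, searched on both strands, was found in 5 genes (Ccl9, Nlrp3, Rel, Nfkbia and Tnfaip3) and in 4.51% of windows, and it overlaps the shorter motif in Rel, Nfkbia and Tnfaip3. The windows of Tnf and Il1b, which were also highest in AUG_WT replicate 1, held neither motif. A match describes letters in a window and does not show that a factor binds there.

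Counts assigned to genes ranged from 7714058 to 14629022 per library. AUG_WT replicate 1 differed in make-up from all other libraries. Albumin took 4.37% of its gene counts against 6.58% to 11.5% elsewhere, and 35.0% of its reads fell outside genes against 21.8% to 29.4%. Levels are in CPM, counts per 1000000 of a library size scaled by TMM (trimmed mean of M values). This scaling lowered every level of AUG_WT replicate 1 relative to counts per gene total. The summed level of 8 hepatocyte markers was 48132 CPM there and at least 107181 elsewhere. Several marker sets were at their highest in it. Its sum was 828 CPM for 8 B-cell and plasma-cell markers (at most 334 elsewhere), 114 CPM for 10 T and NK markers (at most 19.0), 47.4 CPM for 10 neutrophil markers (at most 17.4), 1100 CPM for 12 Kupffer markers (at most 895), 406 CPM for 8 proliferation genes (at most 28.1) and 131 CPM for 6 cholangiocyte markers (at most 76.2). On the TMM scale endothelial markers were at their lowest, at 387 CPM against at least 470.4 elsewhere. The sum of 10 monocyte markers was also at its lowest on that scale (2779 CPM against 2882 to 4203), although the mean of their centred log2 CPM was at its highest (1.83 against at most 0.44). Both lowest places rest on the scaling and would not hold per gene total. No deposited label accounts for the difference, so the group comparisons of the 10 genes are given with 16 libraries and again without this one. Levels and correlations were taken over the other 15, with Pearson's r over all 16 beside those that passed. In bulk tissue, fewer cells of a type and less RNA per cell cannot be told apart.

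AUG_WT replicate 1 held the highest level of 8 of the 10 genes among all 16 libraries, where 28.9% of the genes tested were highest in it. Against the mean of the other 3 AUG_WT libraries it was 36.6 times as high for Tnf, 14 times for Tnfaip3, 5.30 times for Icam1, 3.89 times for Rel, 3.41 times for Nlrp3, 2.87 times for Nfkb1 and 2.24 times for Nfkbia. By the same measure 15.6% of genes tested were over 2 times as high. Neither share tests the 10 genes as a set, since they were chosen with earlier results of these data known. Il1b stood at 1.91 times and Ccl2 at 1.71 times, where Ccl2 ranked 3 of 16. Ccl9 went the other way at 0.592 times, the lowest of the 16 libraries on the TMM scale. In raw reads AUG_WT replicate 1 held 963 for Ccl9 in 10569373 gene counts, and AUG replicate 3 held 720 in 10428134. That lowest place therefore rests on the scaling. The share of the library's leukocyte markers in these levels was not tested.

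**Figure D1:**
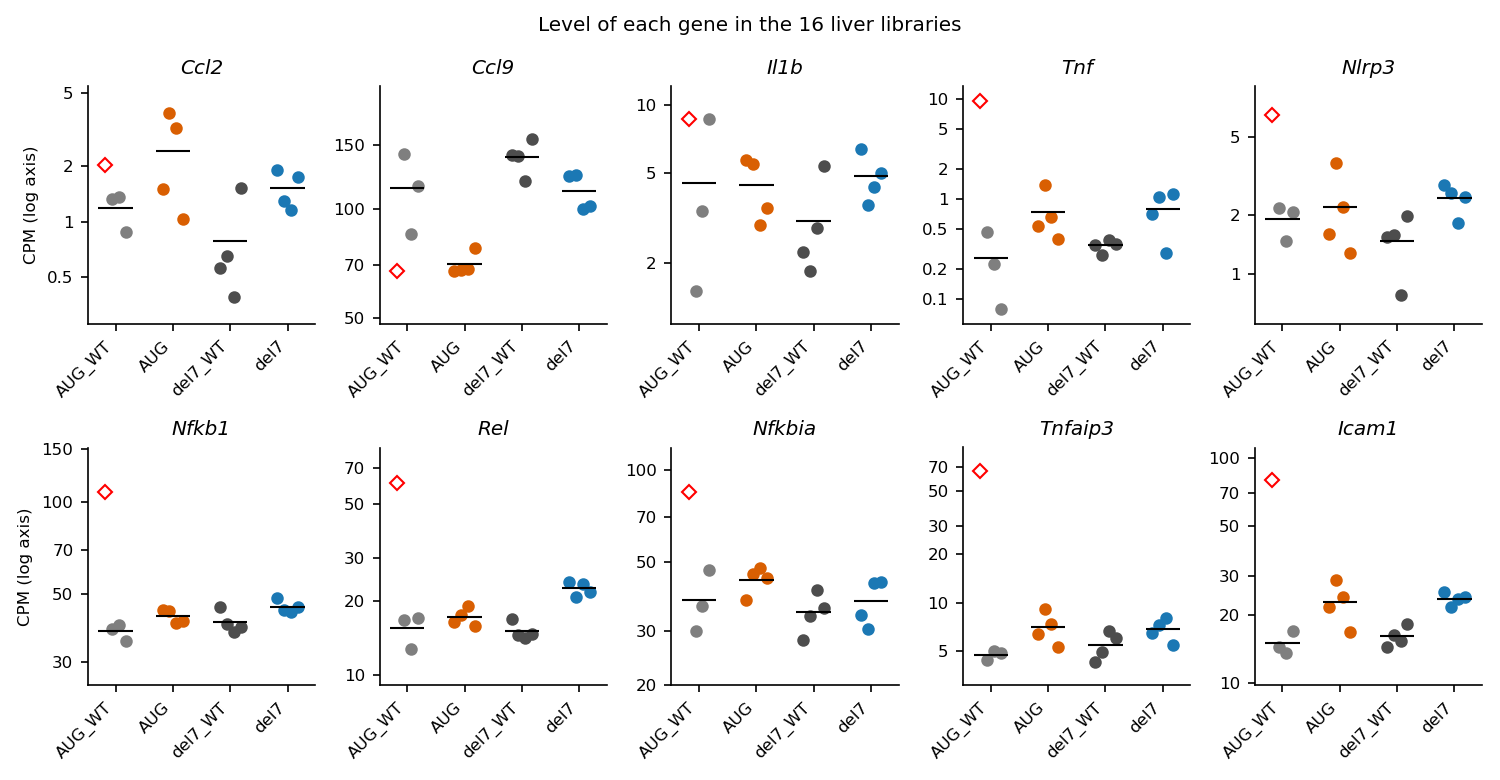
Level of each of the 10 genes in each library, in CPM on a logarithmic axis, with 1 point per library. The open red diamond is AUG_WT replicate 1, and the horizontal line is the group mean, without that library for AUG_WT. For Tnfaip3 the diamond stands at 66.4 CPM and no other library is above 9.15 CPM.

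Levels of different genes were compared per kilobase of exon, over the 15 libraries without AUG_WT replicate 1. Ccl9 was the highest at 35.6 ± 9.77 CPM per kb (SD, n = 15), followed by Nfkbia at 23.9 ± 4.11. Icam1 followed at 4.52 ± 1.09, Nfkb1 at 3.46 ± 0.301, Rel at 2.38 ± 0.463 and Il1b at 2.20 ± 1.01 CPM per kb. Ccl2 had 1.32 ± 0.834, Tnfaip3 0.844 ± 0.196, Nlrp3 0.494 ± 0.175 and Tnf 0.337 ± 0.224 CPM per kb. Neighbours in this order overlapped in their ranges over libraries except at the step from Nfkbia, never under 17.3 CPM per kb, to Icam1, never over 6.56. Nfkb1 was the steadiest, with a coefficient of variation of 8.70%, and Tnf and Ccl2 the least steady at 66.3% and 63.4%. Tnf rested on 1 to 13 reads in each of these libraries and Ccl2 on 3 to 37, so counting error alone is large for both.

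Each gene is given by its value in every library, then by AUG against AUG_WT and del7 against del7_WT. Fold changes are log2 values from edgeR's quasi-likelihood test fitted across all genes, with their standard error (SE). A gene was called when its Benjamini-Hochberg adjusted p over all genes tested was under 0.05. With all 16 libraries edgeR called none of the 10 genes in AUG against AUG_WT, where 0.0277% of 14421 genes were called, and none in del7 against del7_WT, where 0% were. Without AUG_WT replicate 1 it again called none in either, against backgrounds of 0.0274% and 0% of 14582 genes. Limma voom also called 0 of 10 in each. DESeq2 called none with 16 libraries, where it gave no adjusted p for Tnf and Tnfaip3, and 1 of 10 in each comparison with 15, named below.

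Ccl2 (ENSMUSG00000035385.6, chromosome 11) encodes a chemokine that draws monocytes out of the blood. Its level was 1.51, 3.89, 3.23 and 1.04 CPM in the AUG libraries and 2.03, 1.33, 1.36 and 0.878 CPM in AUG_WT. In del7 it was 1.90, 1.29, 1.15 and 1.74 CPM and in del7_WT 0.560, 0.650, 0.389 and 1.52 CPM. AUG replicates 2 and 3 are the highest of all libraries, and 3 of the 4 del7_WT libraries are the lowest. Ccl2 had a fold change of 0.77 (SE 0.44) in AUG with 16 libraries and of 1.03 (SE 0.47) with 15, and in del7 of 0.93 (SE 0.47) and 0.91 (SE 0.47). None passed, with adjusted p of 0.633 and 0.834 in AUG and 1 and 0.951 in del7 from edgeR. Ccl2 was the only gene of the 10 above 0 in AUG with all 16 libraries.

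Ccl9 (ENSMUSG00000019122.9, chromosome 11) encodes a chemokine of myeloid cells. It was the only gene of the 10 below 0 in del7, whereas in AUG with 16 libraries 9 of the 10 were below 0. Its level was 67.6, 67.9, 68.5 and 78.2 CPM in the AUG libraries. AUG_WT held 67.6, 141, 85.4 and 115 CPM, del7 123, 124, 99.7 and 102 CPM, and del7_WT 140, 139, 119 and 156 CPM. Every AUG library lay under the other 3 AUG_WT libraries, and only AUG_WT replicate 1 was as low, which holds on the TMM scale but not per gene total. Means were 70.5 ± 5.13 CPM in AUG (SD, n = 4) and 114 ± 28.1 in AUG_WT without replicate 1 (SD, n = 3). The fold change in AUG was −0.54 (SE 0.18, adjusted p = 0.561 from edgeR) with 16 libraries and −0.67 (SE 0.15, adjusted p = 0.442 from edgeR) with 15. That call depends on the tool and the control: with 15 libraries DESeq2 gave −0.68 with an adjusted p of 0.0318, edgeR with all wild types as the control gave −0.86 with 0.0315, and edgeR without AUG_WT replicate 3 gave −0.85 with 0.0427. In del7 the fold change was −0.31 (SE 0.18) with 16 libraries and −0.32 (SE 0.14, adjusted p = 0.885 from edgeR) with 15, and the groups overlapped.

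Il1b (ENSMUSG00000027398.14, chromosome 2) encodes interleukin-1 beta, made as a precursor that the inflammasome's caspase cuts. It stood at 5.69, 5.47, 2.95 and 3.51 CPM in AUG, 8.63, 1.52, 3.41 and 8.62 CPM in AUG_WT, 6.40, 3.63, 4.32 and 4.98 CPM in del7 and 2.24, 1.86, 2.86 and 5.37 CPM in del7_WT. The AUG_WT libraries span the whole range of the series, with replicate 4 as high as replicate 1. In AUG against AUG_WT the fold change was −0.34 (SE 0.46) with 16 libraries and −0.04 (SE 0.47) with 15. In del7 against del7_WT it was 0.65 (SE 0.47) and 0.64 (SE 0.45), a difference within the spread between libraries.

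Tnf (ENSMUSG00000024401.15, chromosome 17) encodes tumour necrosis factor, a main activator of NF-kB and itself a target of it. The reads counted were 6, 13, 7 and 5 in AUG, 136, 5, 2 and 1 in AUG_WT, 9, 13, 3 and 9 in del7 and 5, 3, 3 and 4 in del7_WT. AUG_WT replicate 1 therefore supplies 136 of the 144 reads of its group. Its 9.54 CPM compares with 0.0798 to 1.37 CPM in the other libraries. In AUG against AUG_WT Tnf had −1.85 (SE 0.98) with 16 libraries and 1.49 (SE 0.61) with 15, so its sign is set by that library, and neither passed (adjusted p of 0.613 and 0.796 from edgeR). The del7 values were 1.17 (SE 1.15) and 1.16 (SE 0.52), with 3 of 4 del7 libraries above all del7_WT libraries. With 15 libraries Tnf passed the filter only through mutant libraries. When 1 more library was left out it stayed in 6 of 7 fits for AUG and 6 of 8 for del7. Its unadjusted p with 15 libraries therefore does not count as evidence of a difference.

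Nlrp3 (ENSMUSG00000032691.15, chromosome 11) encodes the sensor of an inflammasome, and its transcription is raised by NF-kB. The AUG libraries had 1.60, 3.68, 2.19 and 1.28 CPM and AUG_WT 6.52, 2.18, 1.48 and 2.08 CPM. Del7 had 2.84, 2.58, 1.83 and 2.49 CPM and del7_WT 1.54, 1.58, 0.779 and 1.97 CPM. AUG_WT replicate 1 is the highest and AUG replicate 2 the next. In AUG the fold change was −0.51 (SE 0.44) with 16 libraries and 0.19 (SE 0.35) with 15. In del7 it was 0.71 (SE 0.46) and 0.69 (SE 0.33), and 3 of 4 del7 libraries were above every del7_WT library.

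Nfkb1 (ENSMUSG00000028163.18, chromosome 3) encodes p105, the precursor of the p50 subunit. It stood at 44.4, 43.9, 40.1 and 40.7 CPM in AUG and at 108, 38.4, 39.7 and 35.1 CPM in AUG_WT. Del7 held 48.5, 44.5, 43.7 and 45.3 CPM and del7_WT 45.3, 39.8, 37.6 and 39.1 CPM. Apart from AUG_WT replicate 1 all libraries lie within a narrow band, and within it every AUG library is above the other 3 AUG_WT libraries. Fitted values in AUG were −0.39 (SE 0.27) with 16 libraries and 0.18 (SE 0.09, adjusted p = 0.834 from edgeR) with 15. The del7 values were 0.17 (SE 0.27) and 0.16 (SE 0.08). A same-strand gene model, Gm43430, overlaps Nfkb1 and held at most 132 reads, so reads could be split between them.

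Rel (ENSMUSG00000020275.10, chromosome 11) encodes c-Rel, the subunit best known from lymphocytes and macrophages. In del7 it had 24.0, 20.9, 23.5 and 21.9 CPM, and in del7_WT 17.0, 14.6, 14.1 and 14.7 CPM. The 2 groups did not overlap, and the means were 22.6 ± 1.45 and 15.1 ± 1.30 CPM (SD, n = 4 each). The AUG libraries had 16.5, 17.7, 19.2 and 15.8 CPM and AUG_WT 60.5, 16.8, 12.7 and 17.2 CPM. The fold change in del7 was 0.58 (SE 0.36, adjusted p = 1 from edgeR) with 16 libraries and 0.57 (SE 0.11, adjusted p = 0.747 from edgeR) with 15. By p Rel ranked 841 among 14421 genes with 16 libraries and 2 among 14582 with 15, with the same del7 and del7_WT libraries in both fits. DESeq2 on the 15 libraries called it, at 0.57 with an adjusted p of 0.0262. In AUG the fold change was −0.64 (SE 0.36) with 16 libraries and 0.17 (SE 0.12) with 15.

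Nfkbia (ENSMUSG00000021025.9, chromosome 12) encodes the inhibitor that NF-kB itself re-induces. It stood at 37.6, 45.8, 47.9 and 44.4 CPM in AUG, 84.3, 30.0, 36.0 and 47.2 CPM in AUG_WT, 33.8, 30.3, 42.8 and 43.3 CPM in del7 and 27.9, 33.4, 40.8 and 35.4 CPM in del7_WT. All groups overlap, and only AUG_WT replicate 1 is above 47.9 CPM. Fitted values in AUG were −0.17 (SE 0.25) with 16 libraries and 0.23 (SE 0.17) with 15, and in del7 0.13 (SE 0.25) and 0.12 (SE 0.16).

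Tnfaip3 (ENSMUSG00000019850.12, chromosome 10) encodes A20, an enzyme that edits ubiquitin chains and ends the signal. It stood at 6.40, 9.15, 7.33 and 5.27 CPM in AUG and at 66.4, 4.36, 5.0 and 4.87 CPM in AUG_WT. Del7 held 6.48, 7.26, 8.07 and 5.47 CPM and del7_WT 4.27, 4.92, 6.62 and 5.99 CPM. Without AUG_WT replicate 1 every AUG library is above every AUG_WT library. The fold change in AUG was −1.53 (SE 0.70, adjusted p = 0.561 from edgeR) with 16 libraries and 0.58 (SE 0.21, adjusted p = 0.791 from edgeR) with 15. The del7 values were 0.33 (SE 0.71) and 0.33 (SE 0.19), and the groups overlapped.

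Icam1 (ENSMUSG00000037405.9, chromosome 9) encodes the adhesion molecule through which leukocytes attach to endothelium. It had 21.8, 28.6, 24.1 and 16.8 CPM in AUG, 79.8, 14.4, 13.6 and 17.1 CPM in AUG_WT, 25.4, 21.8, 23.5 and 24.1 CPM in del7 and 14.4, 16.4, 15.3 and 18.2 CPM in del7_WT. Del7 and del7_WT did not overlap, with means of 23.7 ± 1.52 and 16.1 ± 1.64 CPM (SD, n = 4 each). AUG and AUG_WT overlapped even without replicate 1, because AUG replicate 4 lay under AUG_WT replicate 4. Icam1 had −0.46 (SE 0.44) in AUG with 16 libraries and 0.61 (SE 0.16, adjusted p = 0.512 from edgeR) with 15. In del7 it was 0.56 (SE 0.45, adjusted p = 1 from edgeR) and 0.55 (SE 0.14, adjusted p = 0.754 from edgeR). An antisense gene model, Gm47079, overlaps Icam1; the counts are strand-specific, and unstranded counting gave 0.712 to 0.835 times as many Icam1 reads.

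Shares of all genes are given here and below for scale only, since the genes were chosen with earlier results of these data known. Across the 10 genes, AUG against AUG_WT with 16 libraries gave 9 values below 0 (56.2% of all genes were below 0) and a median of −0.49, beside a median of −0.04 over all 14421 genes. Unadjusted p was under 0.05 for 2 of them (8.81% of all genes), Ccl9 and Tnfaip3. Without AUG_WT replicate 1 the picture turned: 8 of 10 were above 0 (52.5% of all genes), with a median of 0.21 beside 0.01 over 14582 genes. In that fit 6 of 10 had an unadjusted p under 0.05 (5.92% of all genes), namely Ccl2, Tnf, Nfkb1, Tnfaip3 and Icam1 above 0 and Ccl9 below. Tnf is in this count although it passed the filter there only through mutant libraries. Nfkb1 and Tnfaip3 were higher with no overlap between groups (2.33% of all genes) and Ccl9 was lower with none (3.15%). The sign of 7 genes (Tnf, Nlrp3, Nfkb1, Rel, Nfkbia, Tnfaip3 and Icam1) therefore rests on 1 control library.

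Del7 against del7_WT meets that library only through the shared fit, which sets the filter, the scaling and the estimate of spread. Here 9 of 10 genes were above 0 with 16 libraries (50.1% of all genes), with a median of 0.57 beside 0.00 over all genes, and Ccl9 was the exception. Rel and Icam1 were higher with no overlap (2.41% of all genes with 16 libraries and 2.4% with 15). None had an unadjusted p under 0.05 with 16 libraries (1.92% of all genes). With 15 libraries again 9 were above 0 (47.7% of all genes), and the median was 0.56. In that fit 4 genes had an unadjusted p under 0.05 (5.34% of all genes): Rel, Icam1 and Tnf above 0 and Ccl9 below. The place of Tnf among them is no support, since it passed the filter there only through mutant libraries. The median SE of the 10 genes was 0.45 with 16 libraries and 0.18 with 15.

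**Figure D2:**
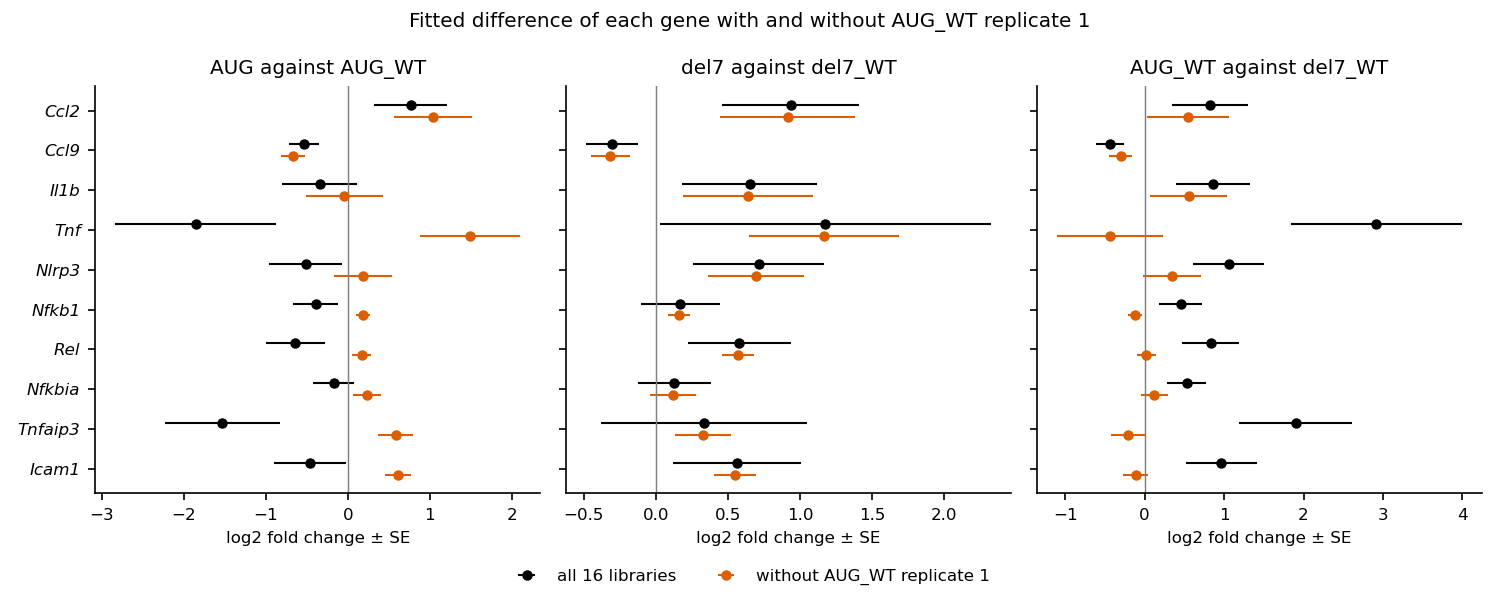
Fitted log2 fold change of each gene with its standard error, in 3 comparisons, from all 16 libraries (black) and without AUG_WT replicate 1 (orange). In AUG against AUG_WT, 7 genes change sign between the fits, whereas in del7 against del7_WT the paired points nearly coincide and only the error bars shrink.

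The 2 mutant effects were also compared with each other. With 16 libraries all 10 genes had a lower effect in AUG than in del7 (54.9% of all genes did), with a median of −1.01, and the smallest adjusted p from edgeR was 0.864 (0.00693% of all genes were called). With 15 libraries 6 were above 0 and 4 below (52.6% and 47.4% of all genes), with a median of 0.04, and every adjusted p from edgeR was 1.00 where 0.0137% of genes were called. Rel had the smallest unadjusted p in both fits, 0.0291 at −1.22 (SE 0.51) with 16 libraries and 0.0245 at −0.40 (SE 0.16) with 15, in edgeR (5.21% and 3.02% of all genes had one under 0.05). A difference between the mutants in these genes was not shown.

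Set against each other, the wild types gave the size of the control shift. With 16 libraries 9 of 10 genes were above 0 in AUG_WT against del7_WT (55.4% of all genes), the median was 0.85, and 6 had an unadjusted p under 0.05 (11.8% of all genes), but edgeR called none (0.0347% of all genes). Tnf had 2.92 (SE 1.07), Tnfaip3 1.90 (SE 0.71) and Nlrp3 1.06 (SE 0.45). Without AUG_WT replicate 1 the genes divided into 5 above 0 (49.1% of all genes) and 5 below, and the median was −0.04. None had an unadjusted p under 0.05 (7.47% of all genes), and edgeR called none (0.0686%). Ccl9 remained lower in AUG_WT in both fits, at −0.44 (SE 0.18) and −0.30 (SE 0.15).

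The wider pathway was read from 7 lists, also chosen with earlier results known, that held 94 further genes, of which 81 were tested. EdgeR called none of them in any comparison, where 0% to 0.0686% of all genes were called. In AUG against AUG_WT 65 were below 0 (56.2% of all genes) and 16 above with 16 libraries, with a median of −0.30. Without replicate 1, 56 were above (52.5% of all genes) and 25 below, with a median of 0.09. In del7 against del7_WT 57 and 56 were above 0 with 16 and 15 libraries (50.1% and 47.7% of all genes), with medians of 0.10 in each. Unadjusted p was under 0.05 in AUG for 13 genes with 16 libraries, all below 0, and for none with 15 (8.81% and 5.92% of all genes). In del7 it was so for none with 16 and for 8 with 15, all above 0 (1.92% and 5.34% of all genes). In both fits of del7, 5 of the 81 were higher with no overlap (2.41% and 2.4% of all genes) and 2 were lower with none (1.61% and 1.6%). These were Relb, Traf2, Myd88, Map3k14 and Cyld above and Tirap and Ikbkb below, of which Map3k14, Cyld, Tirap and Ikbkb are named after their values were seen.

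Among the other NF-kB subunits, Relb, the partner of the non-canonical pathway, was higher in del7 with no overlap, at 4.69 ± 0.857 CPM against 2.63 ± 0.675 CPM (SD, n = 4 each), a fold change of 0.84 (SE 0.57) with 16 libraries and 0.83 (SE 0.24, adjusted p = 0.773 from edgeR) with 15. Nfkb2, which encodes the other precursor subunit, had 0.24 (SE 0.57) and 0.23 (SE 0.14). All 3 listed subunits were above 0 in del7. In AUG, Nfkb2 went from −1.46 (SE 0.57) to 0.11 (SE 0.15) and Relb from −1.22 (SE 0.56) to 0.18 (SE 0.25) when AUG_WT replicate 1 was left out.

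Of 21 adaptors and kinases, 11 were above 0 in del7 with 16 libraries and 10 with 15, a median of 0.00 and −0.01. Traf2, an adaptor of the tumour necrosis factor receptors, had 0.48 (SE 0.26) with 16 libraries and 0.47 (SE 0.12, adjusted p = 0.754 from edgeR) with 15. Myd88, the adaptor of Toll-like and interleukin-1 receptors, had 0.32 (SE 0.17) and 0.31 (SE 0.10, adjusted p = 0.841 from edgeR). Of the 5 adaptors and kinases whose del7 groups did not overlap, 3 others were outside the rule for naming genes. Map3k14, a kinase of the non-canonical pathway, had 0.61 (SE 0.40) and 0.60 (SE 0.20). Tirap, which bridges Myd88 to its receptors, had −0.31 (SE 0.20) and −0.32 (SE 0.18), and Ikbkb, a kinase that marks the inhibitor for degradation, −0.11 (SE 0.09) and −0.12 (SE 0.09). In AUG, Myd88 had −0.50 (SE 0.17) with 16 libraries and −0.21 (SE 0.10, adjusted p = 0.834 from edgeR) with 15, where the groups did not overlap (3.15% of all genes were lower with no overlap). The AUG effect of Myd88 minus its del7 effect was −0.81 (SE 0.24) with 16 libraries and −0.52 (SE 0.14) with 15, with an adjusted p of 0.864 and 1.00 from edgeR.

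Of 12 further inhibitors 8 were above 0 in del7 in both fits. Nfkbiz, an atypical inhibitor family member, had 0.49 (SE 0.30) in del7 with 16 libraries and 0.48 (SE 0.19) with 15, and Nfkbie 0.29 (SE 0.59) and 0.29 (SE 0.16). In AUG, Nfkbie had −1.74 (SE 0.59) with 16 libraries and −0.16 (SE 0.17) with 15. Of 10 inflammasome genes 8 were above 0 in del7 in both fits, and in AUG 2 of 10 with 16 libraries but 9 of 10 with 15. Pycard, the adaptor that joins Nlrp3 to its caspase, had −2.52 (SE 0.90) in AUG with 16 libraries and 0.23 (SE 0.41) with 15. Casp4, the caspase of the non-canonical inflammasome, had −1.68 (SE 0.67) and 0.22 (SE 0.25).

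Of 20 further cytokines and chemokines 13 were tested, and 11 of these were above 0 in del7 in both fits. Il6 was not tested, with at most 5 reads in any library. Ltb, a lymphotoxin subunit, had 33.5 CPM in AUG_WT replicate 1 and at most 1.93 CPM in the other AUG_WT libraries. Ccl5, a chemokine of T and NK cells, had −1.72 (SE 0.82) in AUG with 16 libraries and 0.45 (SE 0.50) with 15. Of the 12 receptors 10 were tested, with 9 above 0 in del7 in both fits. Cd40, a receptor of B cells and macrophages, had −2.46 (SE 1.03) in AUG with 16 libraries and 0.58 (SE 0.64) with 15, and Il1rap, the accessory chain of the interleukin-1 receptor, had 0.73 (SE 0.35) and 0.60 (SE 0.36). Of 16 further targets 12 were tested, with 7 above 0 in del7 in both fits. Vcam1, the endothelial partner of Icam1 in leukocyte adhesion, had 0.60 (SE 0.53) and 0.59 (SE 0.27) in del7. Birc3, an inhibitor of apoptosis, had −0.13 (SE 0.30) and −0.14 (SE 0.18).

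Over the 15 libraries the genes were compared with each other in 45 pairs, by Pearson's r of log2 CPM with permutation p-values adjusted over the pairs. Of these, 35 were above 0, with a median r of 0.38, and 9 passed an adjusted p of 0.05. Icam1 was in 5 of the 9: with Tnfaip3 (r = 0.80, rho = 0.73), Rel (r = 0.74, rho = 0.77), Ccl2 (r = 0.73, rho = 0.69), Nlrp3 (r = 0.69, rho = 0.76) and Tnf (r = 0.69, rho = 0.69). The adjusted permutation p was 0.0169, 0.0244, 0.0201, 0.0262 and 0.0328 for r, and 0.0244, 0.0208, 0.0346, 0.0208 and 0.0346 for rho. Without the 2 libraries farthest from the median of Icam1's partner, these r were 0.70, 0.68, 0.63, 0.61 and 0.53. Within groups, after subtracting each group's mean, they were 0.59, 0.42, 0.73, 0.74 and 0.28, lowest for Tnf and Rel. With all 16 libraries they were 0.94, 0.93, 0.56, 0.84 and 0.90.

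Ccl2 and Nlrp3 had r = 0.78 and rho = 0.73 (adjusted permutation p of 0.0169 and 0.0244), with 0.52 without the 2 farthest libraries, 0.80 within groups and 0.70 with all 16. The pairs Nfkb1 and Rel (r = 0.65, rho = 0.63) and Tnf and Nfkb1 (r = 0.65, rho = 0.60) passed on r, each with an adjusted permutation p of 0.0491, and were 0.67 and 0.62 without the 2 farthest libraries, but within groups they were 0.07 and 0.32 and with all 16 libraries 0.92 and 0.90. For rho their adjusted permutation p was 0.0498 and 0.0735, so the second did not pass. Ccl9 and Nfkbia ran opposite, with r = −0.66 and rho = −0.74 (adjusted permutation p of 0.0491 and 0.0244), −0.70 without the 2 farthest libraries, −0.45 within groups and −0.67 with all 16. Adding AUG_WT replicate 1 raised the median r to 0.61, and the median within groups over the 15 libraries was 0.18.

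**Figure D3:**
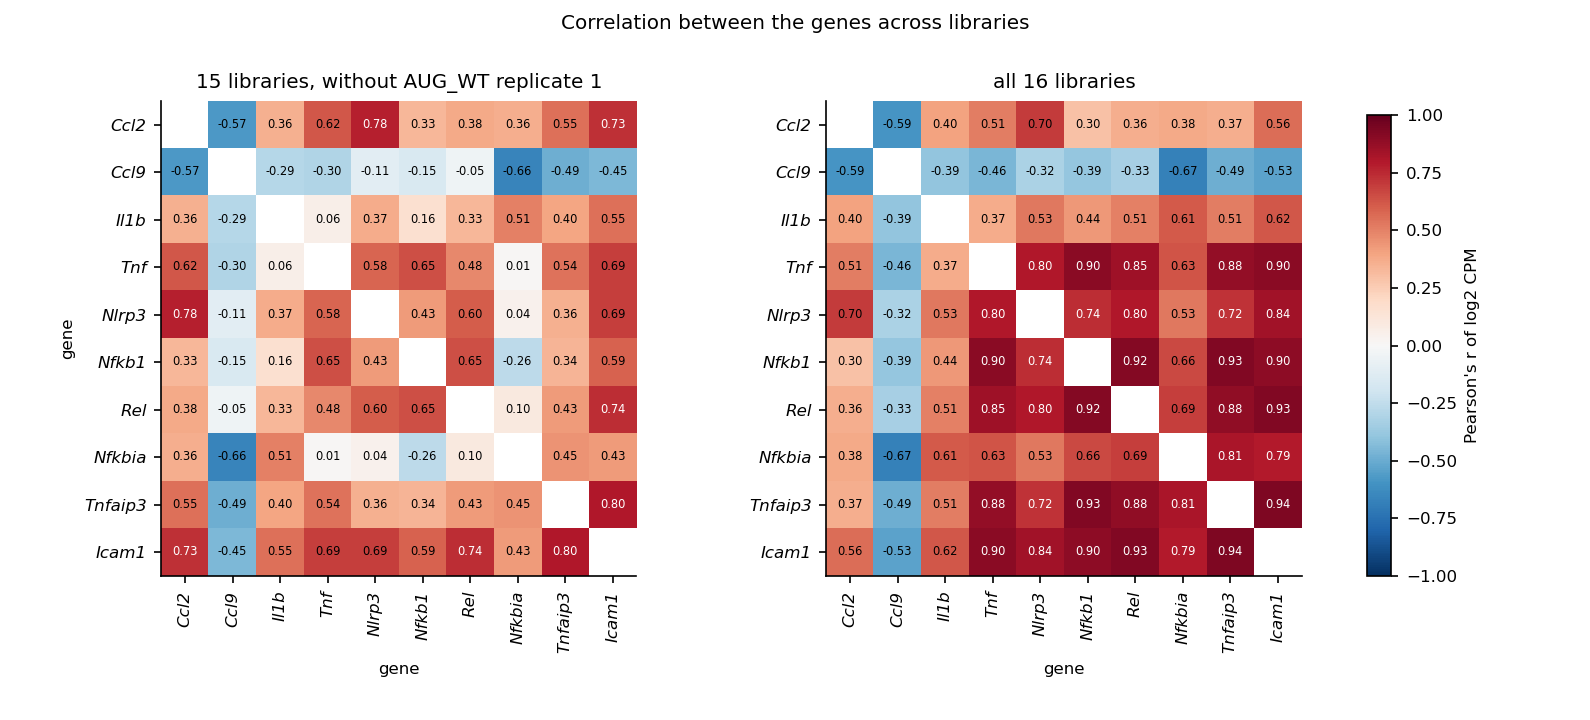
Pearson's r of log2 CPM between each pair of genes, over 15 libraries without AUG_WT replicate 1 (left) and over all 16 (right), on a colour scale from −1 to 1. Ccl9 is negative with every other gene in both panels, and the block from Tnf to Icam1 is darker on the right.

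The genes were also set against the level of 10 sets of cell-type markers over the same 15 libraries, in 100 relations. A set's level is the mean of its tested markers' log2 CPM, each centred on its own mean. After adjustment 5 passed on r. Nlrp3 followed the neutrophil markers (r = 0.84, rho = 0.89, adjusted permutation p = 0.0020 for each), with 0.78 without the 2 farthest libraries, 0.81 within groups and 0.90 with all 16 libraries. Icam1 followed them with r = 0.80 (adjusted permutation p = 0.0127) and rho = 0.74 (0.0780), with 0.77, 0.70 and 0.86. Ccl2 did so with r = 0.75 (adjusted permutation p = 0.0256) and rho = 0.63 (0.131), with 0.76, 0.63 and 0.70. Only 3 of 10 neutrophil markers had enough reads to be tested (S100a8, S100a9 and Csf3r), Ly6g had at most 1 read in any library, and the summed level of all 10 was 2.73 to 17.4 CPM.

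Tnfaip3 followed the Kupffer markers with r = 0.76 (adjusted permutation p = 0.0247) and rho = 0.71 (0.0812), with 0.70 without the 2 farthest libraries, 0.78 within groups and 0.72 with all 16. Ccl2 ran opposite to the hepatocyte markers, with r = −0.80 (adjusted permutation p = 0.0127) and rho = −0.85 (0.0095), −0.69 without the 2 farthest libraries and −0.78 within groups. With AUG_WT replicate 1 added that r was −0.40. The Kupffer markers moved with the del7 comparison too. All 12 were above 0 there, with a median of 0.77 with 16 libraries and 0.76 with 15, and 4 were higher with no overlap between groups (2.41% of all genes with 16 libraries and 2.4% with 15). EdgeR called none of the 12 (0% of all genes in each fit), and the unadjusted p was under 0.05 for 6 with 16 libraries and 10 with 15 (1.92% and 5.34% of all genes). Their summed level was 444 to 732 CPM in del7, 273 to 449 in del7_WT, 389 to 895 in AUG and 420 to 497 in AUG_WT without replicate 1. Neutrophil markers summed to 6.84 to 17.4 CPM in del7 and 2.73 to 5.63 in del7_WT. The median fold change in del7 with 15 libraries was 0.35 for the B-cell and plasma-cell markers, 0.29 for T and NK markers, 0.06 for endothelial, 0.00 for monocyte, −0.03 for cholangiocyte, −0.05 for proliferation, −0.08 for hepatocyte and −0.09 for stellate markers. Fn1, which hepatocytes also express, made up 83.6% to 98.3% of the monocyte sum. The part of these markers in the levels of Rel, Icam1 and the other genes was not tested.

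**Figure D4:**
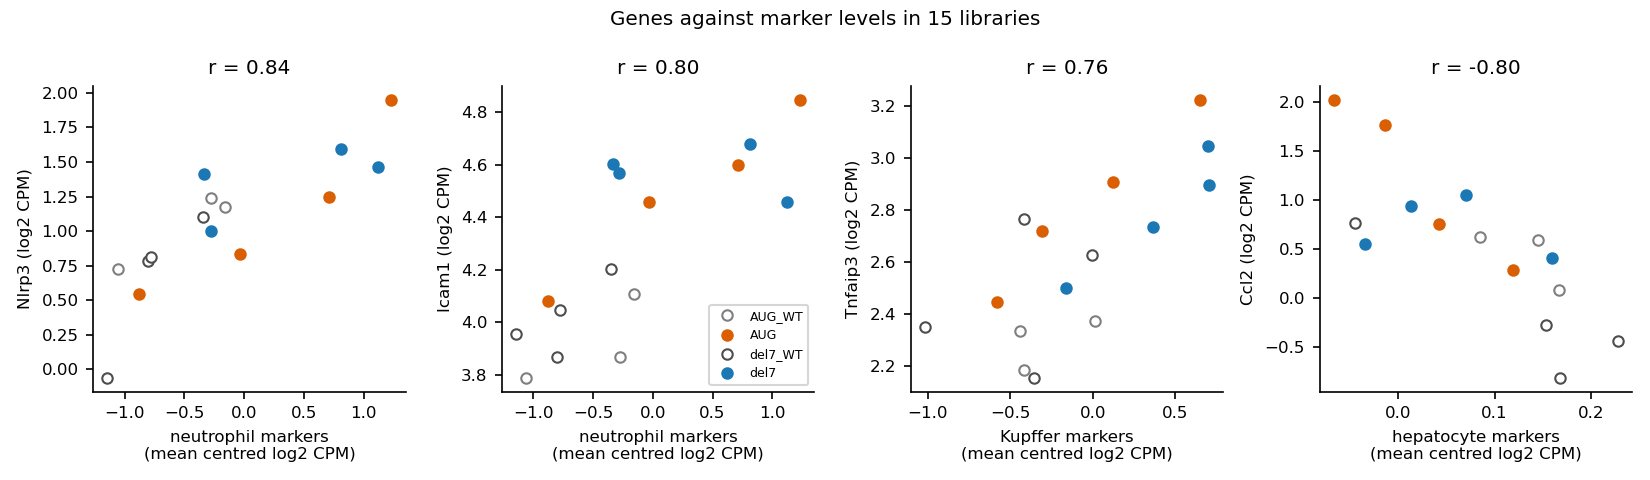
Level of 4 gene and marker pairs in the 15 libraries, with the mean centred log2 CPM of the markers on the horizontal axis and the log2 CPM of the gene on the vertical axis, with 1 point per library (filled, mutants; open, wild types). Nlrp3 and Icam1 rise along the neutrophil markers (r = 0.84 and 0.80) and Tnfaip3 along the Kupffer markers (r = 0.76), while Ccl2 falls along the hepatocyte markers (r = −0.80, or −0.40 with AUG_WT replicate 1, which is not drawn).

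For each gene, the 2 most similar of 12321 tested and named genes were taken by Pearson's r of log2 CPM over the 15 libraries, which share their processing and differ in depth. These are the extremes of a long ranking and are given with no p. Rel was most like Traf2 (r = 0.92, rho = 0.92) and Ripor1 (r = 0.88, rho = 0.80). Nlrp3 was most like Csf3r, the receptor of granulocyte colony-stimulating factor (r = 0.91, rho = 0.94), and Nckap1l, a cytoskeletal gene of blood cells (r = 0.90, rho = 0.94). Csf3r is also 1 of the 3 tested neutrophil markers, so its likeness overlaps the relation of Nlrp3 with those markers. Icam1 was most like Oxct1 (r = 0.91, rho = 0.93) and Ifngr1, an interferon gamma receptor chain (r = 0.88, rho = 0.93). Tnfaip3 was most like Skp2 (r = 0.90, rho = 0.95) and Tek (r = 0.86, rho = 0.79).

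Ccl2 was most like Ncf4, a subunit of the phagocyte oxidase (r = 0.89, rho = 0.74), and C3ar1, a complement receptor (r = 0.85, rho = 0.66). Nfkb1 came closest to Cbln3 (r = 0.88, rho = 0.94) and Ptgr1 (r = 0.83, rho = 0.84), and Nfkbia to Coa5 (r = 0.86, rho = 0.82) and Tor1b (r = 0.86, rho = 0.83). For Tnf they were Naip6 (r = 0.86, rho = 0.82) and Mapk7 (r = 0.84, rho = 0.78), for Il1b Eef1b2 (r = 0.87, rho = 0.74) and the ribosomal protein gene Rpl36a (r = 0.80, rho = 0.59), and for Ccl9 Gpat2 (r = 0.87, rho = 0.85) and Fam160a1 (r = 0.84, rho = 0.80). With AUG_WT replicate 1 added, r turned to −0.26 for Nfkb1 with Cbln3 and to −0.61 for Tnfaip3 with Tek. It fell to 0.43 for Nfkb1 with Ptgr1 and to 0.36 and 0.30 for Nfkbia with Coa5 and Tor1b, and the other 15 were 0.60 to 0.97.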

How the data were processed

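Liver RNA was sequenced in 16 libraries. The submitters' processing notes name cutadapt 2.10, STAR 2.7.9a and the GRCm39 build. Which annotation was counted is not stated in these notes. The authors deposited raw counts per gene, in which the series table equals the reverse-strand column of each of the 16 libraries. Reads in no gene (21.8% to 35.0% of reads, with 9.23% to 15.0% mapping to several places and 2.82% to 3.93% unmapped) were kept out of library sizes.

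Groups were taken from the sample titles. Counts were scaled by TMM, filtered with filterByExpr (minimum count 10) and fitted in edgeR 4.0.16 (R 4.3.3) as 4 group means, leaving 12 residual degrees of freedom, or 11 without AUG_WT replicate 1. The SE is the log2 fold change divided by the square root of the F statistic. Printed levels are CPM on the TMM-scaled library sizes of the genes tested, and log2 CPM used a prior count of 2. Correlations were tested with 100000 random permutations. Alternatives were RLE factors, no filter, a CPM filter, unstranded counts, DESeq2 1.42.0, limma voom 3.58.1, other controls, a replicate block and leaving out each library; alternatives on 15 libraries were added after the data were seen. Replicate numbers were not taken as pairs. The scripts were tested on simulated data, where edgeR recovered 43.3% of genes changed 2-fold in AUG (among 14283 genes) and 41.8% in del7 (among 14319).

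The members and gene lists were chosen with earlier results of these data known. All 10 members are described. Up to 2 genes of each pathway list are named, those with the smallest p in AUG or del7, and the 2 genes most correlated with each member. Names, chromosomes and exon lengths came from GENCODE and promoters from RefSeq, both on GRCm38, a different build from that of the counts.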

Additional observations from a re-analysis of the deposited data

Results flagged for a closer look

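In each group of 4 libraries the gap between the extreme library and its neighbour was compared with the group's range, for 10 genes in 4 groups. Of these 40 sets 7 held a library past Dixon's critical value for 4 samples, and AUG_WT replicate 1 was that library in 6 of them. Chance passes this value in about 1 in 20 independent groups. The 10 genes share their libraries, so 7 of 40 cannot be set against that rate. The level of AUG_WT replicate 1 was 9.54 CPM for Tnf (next highest 0.474), 6.52 CPM for Nlrp3 (next 2.18) and 108 CPM for Nfkb1 (next 39.7). It was 60.5 CPM for Rel (next 17.2), 66.4 CPM for Tnfaip3 (next 5.0) and 79.8 CPM for Icam1 (next 17.1). The remaining set was Ccl9 in the AUG group, where replicate 4 stood at 78.2 CPM and the next highest library at 68.5 CPM, a small gap that is large only beside the closeness of the other 3 libraries. The cause of these values was not tested.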

How the results depend on the processing

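With 16 libraries edgeR called 0 of the 10 genes in each of the 4 comparisons, and each of 33 other settings and 41 fits that left out 1 library also called 0; without AUG_WT replicate 1 the count stayed 0 in 30 of 33 settings and 36 of 37 such fits. The exceptions called 1: Ccl9 in AUG under DESeq2, Ccl9 in AUG with all wild types as control, Rel in del7 under DESeq2, and Ccl9 in AUG without AUG_WT replicate 3, so leaving out 1 further library gave 0 to 1. Over all genes DESeq2 called 9 in AUG with 16 libraries against 4 by edgeR, and with 15 libraries 14 against 4; in del7 it called 1 and 10 against 0. It called 6 and 7 against 1 and 2 for the difference of the effects, and 70 and 84 against 5 and 10 between the wild types. With 16 libraries DESeq2 gave no adjusted p for Tnf and Tnfaip3.

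Directions turned in few settings. With all wild types as control and 16 libraries, AUG gave 0.020 for Il1b and 0.067 for Nfkbia, and del7 gave −0.94 for Tnf, −0.076 for Nfkb1, −0.16 for Nfkbia, −0.92 for Tnfaip3 and −0.0024 for Icam1. This control includes AUG_WT replicate 1. With 15 libraries Il1b in AUG was 0.0017 with unstranded counts, 0.19 with limma voom and 0.25 with all wild types as control, and the difference of the effects was −0.21 for Ccl2 with limma voom; the cause was not tested.

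Leaving out 1 library at a time moved the AUG fold change from −2.30 to 1.49 for Tnf, −0.87 to 0.19 for Nlrp3, −0.55 to 0.18 for Nfkb1, −0.85 to 0.17 for Rel, −0.34 to 0.23 for Nfkbia, −1.85 to 0.58 for Tnfaip3 and −0.69 to 0.61 for Icam1, each positive only without AUG_WT replicate 1. The difference of the effects ranged from −0.70 to 0.12 for Ccl2, −3.47 to 0.33 for Tnf, −0.72 to 0.025 for Nfkb1, −0.46 to 0.12 for Nfkbia, −2.18 to 0.25 for Tnfaip3 and −1.24 to 0.065 for Icam1. Between the wild types it was −0.43 to 3.31 for Tnf, −0.12 to 0.62 for Nfkb1, −0.21 to 2.22 for Tnfaip3 and −0.11 to 1.19 for Icam1. From 15 libraries the ranges that crossed 0 were −0.45 to 0.86 for Il1b and −0.18 to 0.38 for Nlrp3 in AUG. For the difference of the effects they were −0.42 to 0.38 for Ccl2, −1.11 to 0.21 for Il1b, −0.17 to 1.11 for Tnf, −0.048 to 0.057 for Nfkb1, −0.026 to 0.29 for Nfkbia and −0.067 to 0.19 for Icam1. Between the wild types they were −0.34 to 0.99 for Il1b, −1.21 to 0.061 for Tnf, −0.039 to 0.15 for Rel and −0.061 to 0.27 for Nfkbia. Tnf failed the filter in 3 of the fits for the difference of the effects from 15 libraries. No fold change of the del7 comparison turned when 1 library was left out.

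The replicate numbers are shared by the groups, but same-numbered libraries did not deviate together throughout (correlations of −0.157 to 0.351 in AUG and 0.0919 to 0.283 in del7, and not every library was closest to its own number), so they were not taken as pairs. In del7, replicates 1, 2 and 3 were closest to their own number and replicate 4 was not, and in AUG with 16 libraries only replicate 4 was. A fit with the replicate number as a block called 0 of the 10 genes in each comparison; with 15 libraries it turned Il1b in AUG to 0.10 and the difference of the effects of Nfkb1 to −0.014.

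Depth limits Tnf, Ccl2 and Nlrp3 most. With 4 libraries a group, simulated 1.5-fold changes were called for 7.46% of genes in AUG and 5.97% in del7, so a difference of that size in these genes could go uncalled.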
